A study of Mus musculus with 6 samples.

Results

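The genes described are Plau, Plaur, Plat, Serpine2 and Serpinf1, which encode both plasminogen activators, the receptor of one of them, and 2 members of the serpin family of protease inhibitors. They were taken by gene name from a table of 54532 genes, all 5 were found, and all 5 were among the 12681 genes expressed highly enough to be tested. The cells were MC3T3-E1, an established mouse pre-osteoblast line. Control cells grew in osteogenic medium, which the study describes as medium with β-glycerophosphate, ascorbic acid and 10 nM dexamethasone, a synthetic glucocorticoid, and treated cells grew in the same medium with metformin, a biguanide that lowers blood glucose. Each group had 3 samples and was collected after 3 days, with metformin at 0.2 mM. The osteogenic medium, the dexamethasone, the dose and the time are known from the study's text, because the labels give none of them. Samples labelled control were taken to be those the text describes as osteogenic medium alone. While the study calls the samples biological replicates, the labels do not state whether they came from separate cultures, so p-values measure the spread between these samples.

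Plasminogen activators are serine proteases that cut the inactive protein plasminogen into plasmin, a broad protease that dissolves fibrin and degrades matrix. Urokinase, the product of Plau, acts mostly at the cell surface, where the receptor encoded by Plaur holds it, and tissue plasminogen activator, the product of Plat, acts mostly on fibrin. Serpins trap such proteases. Serpine2 encodes protease nexin-1, which inhibits thrombin, urokinase and plasmin, while Serpinf1 encodes pigment epithelium-derived factor (PEDF), a secreted serpin that inhibits no protease and is known in bone because its loss in humans causes a form of brittle bone disease.

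In the deposited coordinates, which for all 5 genes are those of GENCODE M21 on GRCm38, Plau lies on chromosome 14 (20836660 to 20843385, plus strand) and its longest protein-coding transcript has 11 exons. Plaur lies on chromosome 7 (24462484 to 24475968, plus strand, 7 exons) and Plat on chromosome 8 (22757727 to 22782844, plus strand, 14 exons). Serpine2 lies on chromosome 1 (79794197 to 79861180, minus strand, 9 exons) and Serpinf1 on chromosome 11 (75409769 to 75422701, minus strand, 8 exons). None of the 5 overlaps another annotated gene, and none of their 25 transcripts matched a transcript of another gene at 95% identity over 200 bases.

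Promoter windows from RefSeq (GRCm38.p6) were found for 3 of the 5 genes and are shown because Plaur and Serpinf1 were called higher with metformin and Serpine2 was not. The 250 bases before each RefSeq start site were searched on both strands for the AP-1 motif (TGANTCA), the cyclic AMP response element or CRE (TGACGTCA) and the GC box (GGGCGG). They were also searched for the E-box, with the letters CACGTG in either direction, for the 5 letters that give the CCAAT box its name, and for the TATA box with the letters TATAAA. The stretches printed read 5′ to 3′ on the strand of the gene, from chr7:24462233-24462482 (plus) for Plaur, chr1:79858697-79858915 (minus) for Serpine2 and chr11:75422702-75422873 (minus) for Serpinf1. The last 31 bases of the Serpine2 window and the last 78 of the Serpinf1 window are left out because GENCODE annotates them as exon. Capitals mark motif matches.
Plaur: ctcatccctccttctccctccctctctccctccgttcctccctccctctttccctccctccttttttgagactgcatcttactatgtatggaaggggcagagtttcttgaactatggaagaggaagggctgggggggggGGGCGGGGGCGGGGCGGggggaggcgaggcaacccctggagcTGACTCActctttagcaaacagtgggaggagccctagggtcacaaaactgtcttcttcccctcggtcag
Serpine2: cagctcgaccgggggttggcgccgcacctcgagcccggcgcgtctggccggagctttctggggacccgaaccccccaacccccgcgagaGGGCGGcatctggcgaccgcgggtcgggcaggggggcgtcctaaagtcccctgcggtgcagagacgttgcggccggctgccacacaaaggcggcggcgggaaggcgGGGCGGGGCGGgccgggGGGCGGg
Serpinf1: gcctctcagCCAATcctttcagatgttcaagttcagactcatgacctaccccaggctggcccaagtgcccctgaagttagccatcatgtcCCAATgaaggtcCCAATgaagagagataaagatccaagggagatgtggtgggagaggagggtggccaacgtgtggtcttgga

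The Plaur window holds 1 AP-1 match (the 7 bases from -69 to -63 relative to the start site) and 3 GC boxes, of which neighbours adjoin or overlap by 1 base. The Serpine2 window is rich in G and C (78.8%) and holds 6 GC boxes, 4 of them in the printed stretch. It lies inside the annotated gene, whose 5′ end on the minus strand is at 79861180, and so precedes an internal start site. The Plaur window lies just before the annotated 5′ end of its gene, and the Serpinf1 window spans that of its gene. The Serpinf1 window, at 51.6% G and C, holds 3 CCAAT boxes and none of the other motifs. Of 32851 RefSeq windows of the same length, 6.75% hold the AP-1 letters, 32.7% a GC box and 33.8% a CCAAT box, while 1.55% hold the CRE, 6.02% the E-box and 12.4% the TATA box. These matches describe letters in the windows and not bound sites.

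The values are FPKM (fragments scaled to gene length and library size), from which whole reads could be recovered, and the recovered totals were 18399861 to 20652437 reads in the control samples and 19256672 to 22111790 with metformin. A gene was called when its adjusted p-value was under 0.05 by limma-trend on log2(FPKM + 1), and log2 fold changes (metformin minus control) are on that scale, which understates changes of low genes. Control replicate 1 stood apart from the other controls, with Pearson correlations across genes of 0.960 and 0.952 with them against 0.988 between those, and its deviation from them followed the GC content of genes (Spearman correlation across genes -0.668). The 3 metformin samples correlated at 0.992 with each other. The osteoblast line expressed bone genes at differing levels, with Sp7, an osteoblast transcription factor, at 36.8 to 54.0 FPKM over all samples. Other osteoblast markers ranged from high to low. Spp1 had 2680 to 8357 FPKM over all samples, Col1a1 927 to 2576 FPKM and Ibsp 260 to 964 FPKM. Bglap was lower, at 2.22 to 12.3 FPKM, as was Alpl, at 2.44 to 3.84 FPKM. Phex, at 0.146 to 0.714 FPKM, was too low to be tested.

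Plau rose most of the 5 genes. It had 6.04, 5.28 and 3.68 FPKM in control replicates 1, 2 and 3, from 171 to 262 reads, and 16.01, 15.94 and 17.15 FPKM with metformin, from 752 to 822 reads. Every metformin sample was at least 2.64 times the highest control. The mean went from 4.997 ± 1.21 (SD, n = 3) to 16.4 ± 0.683 FPKM (SD, n = 3), a ratio of 3.28. By limma-trend this was 1.55 ± 0.15 (standard error) on the log2 scale, with an adjusted p of 0.000829.

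Plaur, the receptor that holds urokinase at the cell surface, rose too. It had 5.52, 9.55 and 8.53 FPKM in the control replicates and 18.8, 16.9 and 17.4 FPKM with metformin, from 264 to 524 and from 886 to 976 reads. The groups did not overlap, and control replicate 1 was the lowest sample. The mean went from 7.87 ± 2.09 to 17.7 ± 1.00 FPKM (SD, n = 3 each), 2.25 times the control. By limma-trend this was 1.10 ± 0.18 (standard error) on the log2 scale, with an adjusted p of 0.00656. Without control replicate 1 the log2 fold change of Plaur was 0.90 and its adjusted p was 0.00027.

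Plat, which encodes the other activator, was not called. Its control values were 23.4, 18.2 and 15.6 FPKM and its values with metformin 17.8, 18.9 and 16.8 FPKM, resting on 1916 to 2666 reads in every sample. The metformin samples lay within the range of the controls. The means were 19.1 ± 3.96 and 17.9 ± 1.03 FPKM (SD, n = 3 each), and the log2 fold change was -0.07 (95% confidence interval -0.43 to 0.28, adjusted p = 0.764 by limma-trend). Without control replicate 1, the highest of the controls, it was 0.08, so Plat has no settled direction in these samples, and the interval does not exclude a change of either sign within its bounds.

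Serpine2 likewise was not called. It had 81.5, 60.4 and 50.02 FPKM in the control replicates and 59.4, 61.0 and 59.0 FPKM with metformin, from 8148 to 12337 reads. The metformin samples lay close together inside the wide range of the controls. The means were 64.0 ± 16.1 and 59.8 ± 1.08 FPKM (SD, n = 3 each), and the log2 fold change was -0.07 (95% confidence interval -0.48 to 0.35, adjusted p = 0.816 by limma-trend). It turned to 0.12 without control replicate 1.

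Serpinf1, the most highly expressed of the 5, rose by a smaller factor. It had 170, 220 and 181 FPKM in the control replicates, from 7303 to 10884 reads, and 313, 312 and 296 FPKM with metformin, from 13587 to 16031 reads. The lowest metformin sample was 1.34 times the highest control. The mean went from 190 ± 26.4 to 307 ± 9.84 FPKM (SD, n = 3 each), 1.61 times the control. By limma-trend this was 0.70 ± 0.12 (standard error) on the log2 scale, with an adjusted p of 0.00794.

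**Figure D1:**
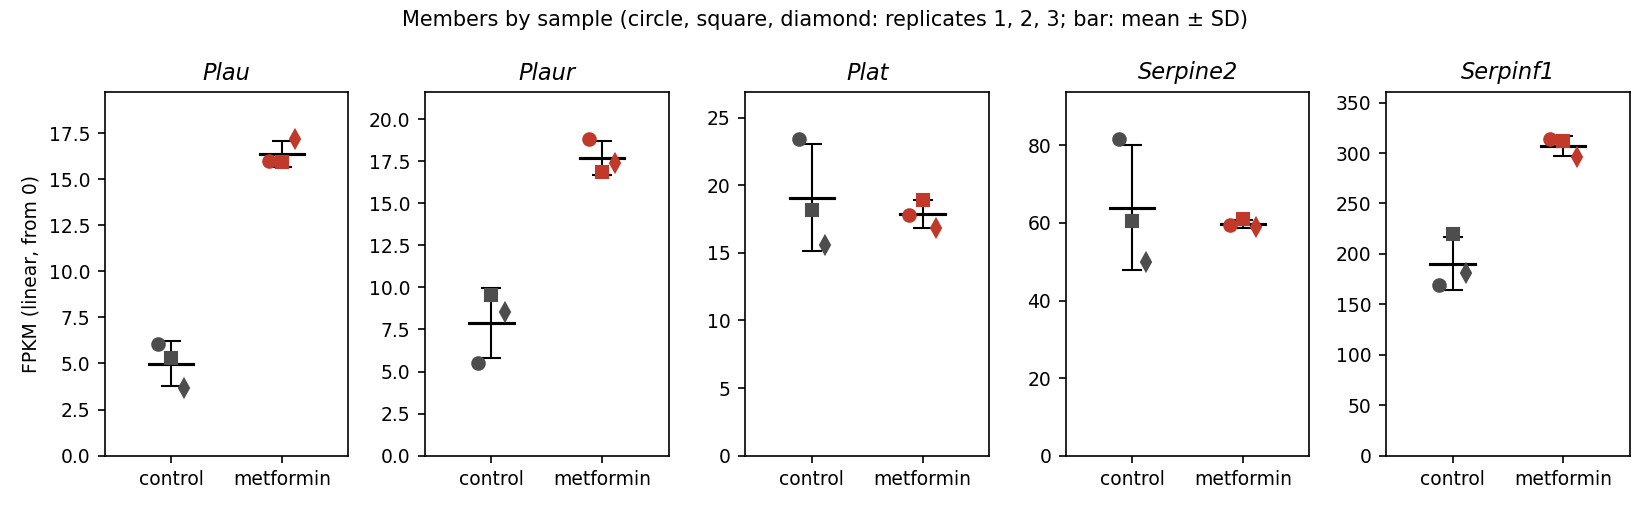
FPKM (vertical axis, linear from 0, a scale of its own in each panel) of Plau, Plaur, Plat, Serpine2 and Serpinf1 in the control and metformin samples, with 1 point per sample and the mean ± SD (n = 3). The metformin points of Plau (15.9 to 17.2), Plaur (16.9 to 18.8) and Serpinf1 (296 to 313) lie above all control points, while those of Plat and Serpine2 lie among the controls.

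In all, 3 of the 5 genes were called higher, against 13.2% of all tested genes, and 0 were called lower, against 9.28%. No gene of the 5 was lower at an unadjusted p under 0.05 or by voom, a limma method for reads, where the count was also 0. The metformin samples lay entirely above the controls for those 3 genes, which was the case for 23.6% of all tested genes, and entirely below them for none, against 20.5%. The median log2 fold change of the 5 genes was 0.70 and that of all tested genes was 0.0053, with quartiles of -0.21 and 0.24.

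The spread among controls was wider than that among metformin samples in each of the 5 genes, a description without a test. It was not particular to these genes. Reads of tested genes were compared between pairs of samples by a chi-square that grows as differences exceed read sampling. Its median over genes was 3.14 to 16.9 between controls and 1.22 to 1.45 between metformin samples. The coefficient of variation was 24.1% against 4.17% for Plau, 26.6% against 5.69% for Plaur, 20.8% against 5.80% for Plat, 25.1% against 1.81% for Serpine2 and 13.8% against 3.21% for Serpinf1. Relative to the mean of the other controls, control replicate 1 had 1.35 times the Plau, 1.38 times the Plat and 1.48 times the Serpine2, genes whose longest transcript has 48.3%, 45.8% and 45.7% GC. It had 0.611 times the Plaur and 0.845 times the Serpinf1, at 53.0% and 54.4% GC. After the GC trend of every library was removed, the log2 fold changes were 1.53 for Plau, 1.11 for Plaur, -0.10 for Plat, -0.09 for Serpine2 and 0.69 for Serpinf1, and the same 3 genes were called.

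**Figure D2:**
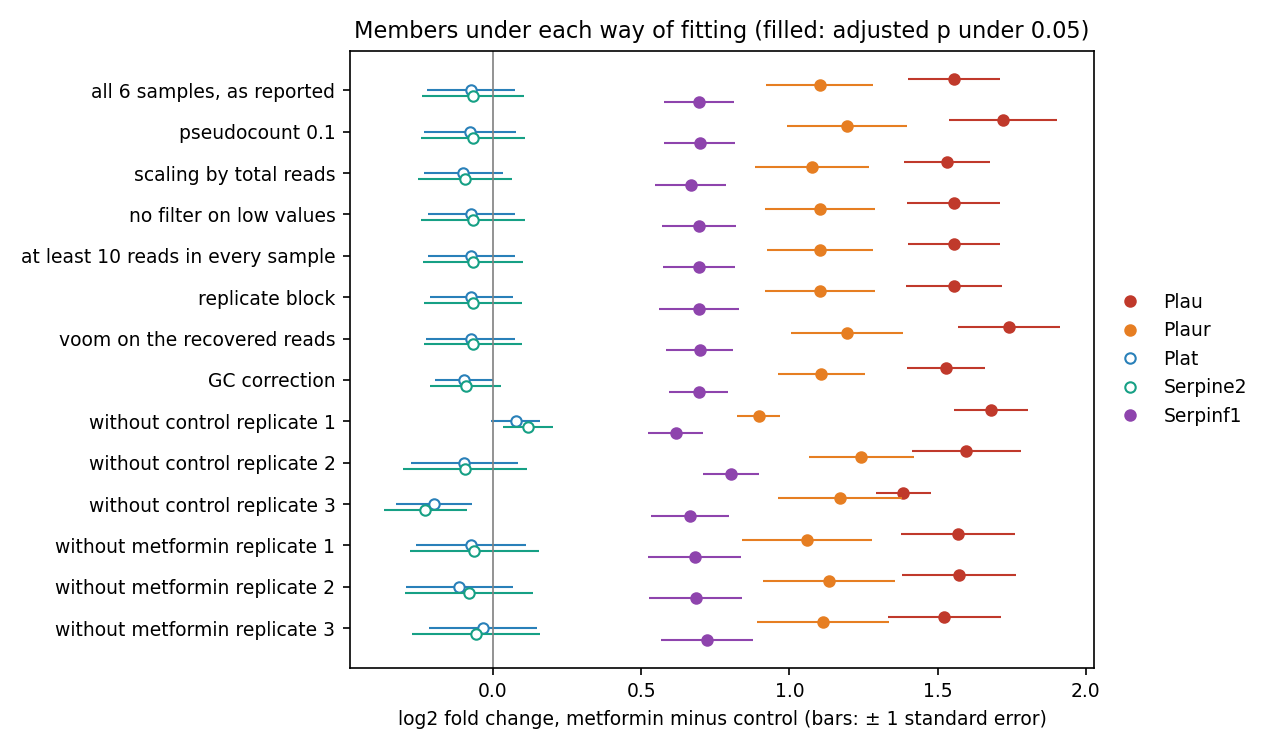
Log2 fold change (horizontal axis, metformin minus control, ± 1 standard error) of the 5 genes with all 6 samples and under each other way of fitting (vertical axis), with filled points where the adjusted p was under 0.05. Plau, Plaur and Serpinf1 are filled in every row and stay at or above 0.62, and Plat and Serpine2 are open in every row and lie right of 0 without control replicate 1.

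Ratios of FPKM within a sample do not depend on how libraries are scaled, and they were described without a test. The ratio of Plau to Plat, the 2 activators, was 0.258, 0.290 and 0.235 in the control replicates and 0.898, 0.843 and 1.02 with metformin. The groups did not overlap, and the mean ratio was 3.52 times as high with metformin. The ratio of Plau to Serpine2, a protease and an inhibitor that can bind it, was 0.0741, 0.0874 and 0.0735 in the controls and 0.270, 0.261 and 0.291 with metformin, again without overlap.

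Plat and Serpine2 kept nearly one ratio in all samples. It was 0.287, 0.301 and 0.312 in the controls and 0.300, 0.310 and 0.285 with metformin, so the groups overlapped. Between the serpins, the ratio of Serpinf1 to Serpine2 was 2.08, 3.64 and 3.63 in the controls and 5.28, 5.11 and 5.01 with metformin. The groups did not overlap, and the low control value was that of replicate 1. Plau over Plaur, the enzyme over its receptor, was 1.09, 0.553 and 0.431 in the controls and 0.852, 0.946 and 0.987 with metformin, and here the groups overlapped.

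**Figure D3:**
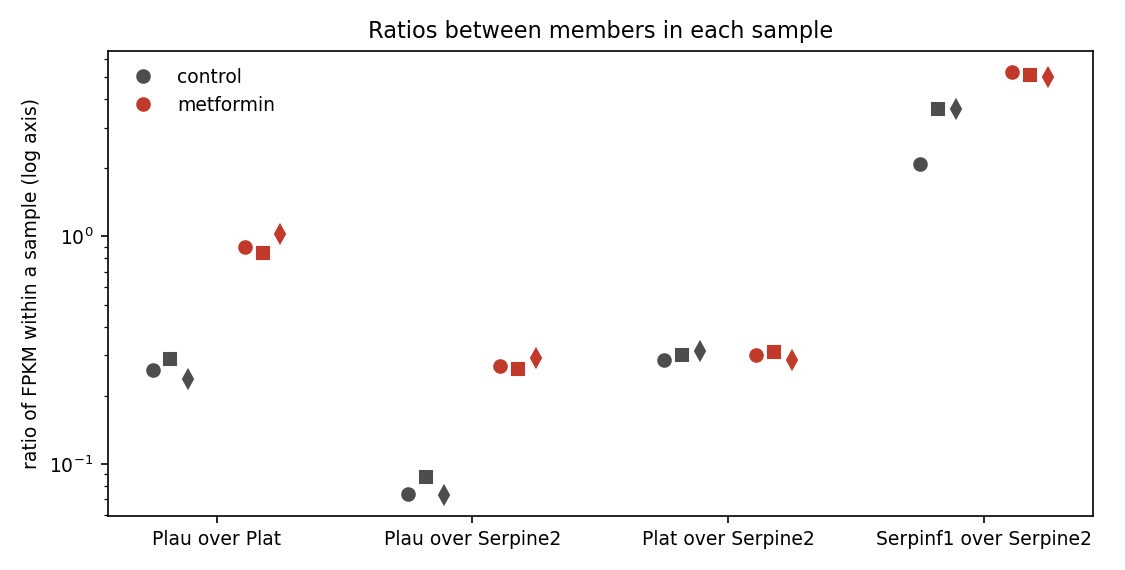
Ratio of FPKM between pairs of the genes within each sample (vertical axis, log scale), with 1 point per sample in the control and metformin groups. Plau over Plat (0.235 to 0.290 against 0.843 to 1.02) and Plau over Serpine2 separate the groups, while Plat over Serpine2 stays between 0.285 and 0.312 in all samples.

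The order of the levels depends on the gene length used. The length in the table equals the union of all annotated exons of each gene. It is 3.75 times the length of the longest protein-coding transcript for Serpine2 (8287 against 2210 bases), 2.47 times for Plat (6241 against 2525) and 1.74 times for Plaur (2617 against 1506). For Serpinf1 it is only 1.29 times that length and for Plau 1.01 times. On the FPKM of the table the order in the controls was Serpinf1, Serpine2, Plat, Plaur and Plau, and the ranges of Plaur and Plau overlapped. With metformin Plat (16.8 to 18.9), Plaur (16.9 to 18.8) and Plau (15.9 to 17.2) overlapped each other.

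Per length of the coding transcript, a choice made after the values were seen, the same order held with other gaps. In the controls Serpinf1 (218 to 283) and Serpine2 (188 to 306) overlapped, and Plat (38.6 to 57.8), Plaur (9.60 to 16.6) and Plau (3.71 to 6.10) were apart. With metformin no neighbours overlapped, with Serpinf1 at 395 ± 12.7, Serpine2 at 224 ± 4.06, Plat at 44.1 ± 2.56, Plaur at 30.7 ± 1.75 and Plau at 16.5 ± 0.690 (SD, n = 3). Fold changes between groups are the same for either length apart from the pseudocount.

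The substrate of the activators was nearly absent as transcript, and its protein was not measured in these data. The study's culture media held fetal bovine serum, so the transcript does not give the plasminogen present in the cultures. Plasminogen (Plg) had 2 reads in metformin replicate 2 and 0 in the other samples, and 3 reads are at most 1.63e-05% of a sample, for counting error only. A list of 13 genes around plasminogen and plasmin formation also held the fibrinogen genes and Thbd, which do not form plasmin. Of the 13 genes 5 were tested, 3 were called higher and 0 lower (0 too by an unadjusted p under 0.05 and by voom), with a median log2 fold change of 0.52. Over all tested genes 13.2% were called higher and 9.28% lower, shares to be set beside the counts of this list and those that follow. No set test was run, and each list holds few tested genes. Thbd, which encodes thrombomodulin, a thrombin receptor that promotes activation of an inhibitor of fibrinolysis, went from 26.1 ± 2.93 to 91.3 ± 3.60 FPKM (log2 fold change 1.77, adjusted p = 0.000138). Among surface proteins that bind plasminogen, Eno1 (alpha-enolase) rose by 0.81 (adjusted p = 0.00602), with near-identical copies in 4 other genes that could share its reads, and Anxa2 (annexin A2) by 0.52 (adjusted p = 0.00973), a call kept in 3 of the 6 fits that left out 1 sample. S100a10, the partner of annexin A2, had 248 ± 69.7 and 233 ± 6.49 FPKM and was not called (adjusted p = 0.867), nor was the plasminogen receptor gene Plgrkt, at 10.2 ± 0.952 and 10.4 ± 0.263 FPKM.

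Of 9 genes listed as other inhibitors of activators or plasmin, 1 passed the limit for testing, Serpinb6a, at 28.6 ± 3.44 and 31.8 ± 0.966 FPKM (adjusted p = 0.344), and 0 were called in either direction, also 0 at an unadjusted p under 0.05 and 0 by voom. Serpinb2, which encodes plasminogen activator inhibitor type 2, was under the limit, with 0.043 to 0.256 FPKM in the controls and 0.430 to 0.665 with metformin, from at most 31 reads in a sample. Its groups did not overlap. It was tested only in the fit without the filter on low values, where it was called higher (log2 fold change 0.48, adjusted p = 0.0368 by limma-trend), and Serpinb6a was called higher only without control replicate 1 (0.24, adjusted p = 0.0336). Serpinf2, the gene of the plasmin inhibitor alpha-2-antiplasmin, had at most 11 reads in a sample.

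The list of uptake receptors held receptors that take up activator-serpin complexes or bind the urokinase receptor, and the receptor chaperone Lrpap1. Its genes moved in both directions. Of 8 genes 6 were tested, of which 2 were higher and 1 was lower, with a median log2 fold change of 0.34. Lrp1, the main uptake receptor for such complexes, went from 59.8 ± 12.2 to 105 ± 7.69 FPKM (log2 fold change 0.81, adjusted p = 0.0122), a call kept in 4 of the 6 fits that left out 1 sample, and it overlaps Gm16217. Lrp8, a receptor of the same family, rose from 0.923 ± 0.0855 to 2.82 ± 0.0143 FPKM (0.99, adjusted p = 0.000431). Vldlr, which also binds urokinase complexes, fell from 12.8 ± 1.68 to 6.70 ± 0.163 FPKM (-0.84, adjusted p = 0.00222). Mrc2, whose product Endo180 associates with the urokinase receptor, had 48.1 ± 8.91 and 66.5 ± 3.52 FPKM without overlap of the groups but missed the threshold (adjusted p = 0.0535).

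Of 10 reported partners of the urokinase receptor, 8 were tested, with 3 higher, 2 lower and a median log2 fold change of 0.20. The alpha subunit Itgav, with 11.8 ± 3.65 and 25.9 ± 0.242 FPKM, the beta subunit Itgb1, with 203 ± 43.9 and 329 ± 7.38 FPKM, and Itga3 were higher, whereas the beta subunits Itgb3 (9.87 ± 1.03 and 5.24 ± 0.493 FPKM) and Itgb5 (385 ± 13.0 and 247 ± 12.7 FPKM) were lower. The calls of Itgb1 and Itga3 were each kept in 2 of the 6 fits that left out 1 sample. Some of the list genes named here overlap or nearly match another annotated gene that could share their reads. They are Itgav, Itgb5, Anxa2, Eno1, Lrp1, Lrp8, Ltbp1, Plxdc1, Fn1, Serpinb6a, Serpinb2 and Plg, and the markers Col10a1, Col1a2, Spp1, Phex, Acp5 and Itgam. The use of strand in counting is not stated, and the most similar genes named below were not searched for such overlaps or matches. Vitronectin (Vtn), the matrix ligand of the receptor, had at most 5 reads in a sample.

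The thrombin side was listed because Serpine2 inhibits thrombin, and it holds thrombin, its receptors and other coagulation genes. Of its 12 genes 5 were tested, 3 were higher and 0 lower (0 too by an unadjusted p under 0.05 and by voom), with a median log2 fold change of 0.68. The shares over all tested genes were 13.2% higher and 9.28% lower. F2r, the thrombin receptor PAR1, went from 20.2 ± 4.08 to 42.1 ± 2.28 FPKM (log2 fold change 1.04, adjusted p = 0.00338). F3, tissue factor, which starts coagulation, rose from 56.7 ± 6.89 to 108 ± 0.591 FPKM (0.92, adjusted p = 0.00172), and Procr, the protein C receptor, from 2.73 ± 0.271 to 4.95 ± 0.379 FPKM (0.68, adjusted p = 0.0036). Prothrombin itself (F2) had at most 2 reads in a sample.

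Among 6 reported binding partners of PEDF, all tested, 1 was higher and 1 lower, with a median of 0.13. Plxdc2 had 10.9 ± 2.63 and 18.8 ± 0.774 FPKM (log2 fold change 0.75, adjusted p = 0.0153) and Plxdc1 1.29 ± 0.401 and 0.491 ± 0.0963 FPKM (-0.61, adjusted p = 0.0315), calls kept in 2 and 1 of the 6 fits that left out 1 sample. Pnpla2, a lipase that is also a PEDF receptor, had 9.15 ± 2.26 and 6.59 ± 0.234 FPKM and was not called (adjusted p = 0.146). Without control replicate 1 the counts were 3 higher and 2 lower, and with the GC trend removed 2 and 2, Pnpla2 among the lower in both. Without control replicate 2 or any one metformin sample they were 0 and 0.

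Of 18 proteins known to be cut by plasmin or its activators, 13 were tested, 1 was higher and 2 lower, and the median log2 fold change was -0.06. Mmp13, a collagenase, fell from 531 ± 68.9 to 199 ± 4.55 FPKM (-1.40, adjusted p = 0.000415), and Igfbp5, an IGF binding protein, from 12.7 ± 0.304 to 7.21 ± 0.0574 FPKM (-0.74, adjusted p = 0.000717). Ltbp1, which holds latent TGF-β in the matrix, rose from 53.4 ± 6.04 to 92.7 ± 3.998 FPKM (0.79, adjusted p = 0.00297), and it overlaps another annotated gene. Fn1 (fibronectin) and Mmp2 (gelatinase A) were not called, with 806 ± 62.5 and 863 ± 51.7 FPKM for Fn1 and 564 ± 25.2 and 597 ± 22.1 FPKM for Mmp2. Tgfb1 had 39.4 ± 14.6 and 26.8 ± 1.04 FPKM (adjusted p = 0.281), and without control replicate 1 its log2 fold change was -0.81 and it was called lower. The counts of this list were 3 higher and 4 lower without control replicate 1, 1 and 4 with the GC trend removed, and 3 and 2 without the filter on low values.

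Of 11 serpins with other targets, 5 were tested, 2 were higher and 1 lower, with a median of 0.53. Serpinh1, the collagen chaperone HSP47, had 461 ± 82.8 and 692 ± 21.3 FPKM (0.60, adjusted p = 0.0299, call kept in 3 of 6 fits that left out 1 sample). Serpinb1a, an inhibitor of neutrophil proteases, had 0.595 ± 0.206 and 1.58 ± 0.203 FPKM (0.70, adjusted p = 0.0105, kept in 4 of 6). Serpina3n, the antichymotrypsin-like serpin, fell by 0.60 on the log2 scale (adjusted p = 0.0126, kept in 5 of 6). Serpinb9, a granzyme B inhibitor, missed the threshold (adjusted p = 0.0519). Every list call that was lost in such a fit was lost without a metformin sample, and those of Itgb1, Itga3, Plxdc1 and Plxdc2 also without control replicate 2 (Plxdc1 without control replicate 3 too). A lost call need not mean a changed log2 fold change. Anxa2 had 0.51 to 0.53 without each metformin sample, against 0.52 with all samples. Serpina3n had -0.53 without metformin replicate 2, against -0.60 with all samples. Genes that passed the threshold without control replicate 1 included Mrc2 and Serpinb9. In that fit 4 uptake receptors, 4 partners of the urokinase receptor, 4 genes of the thrombin side and 3 other serpins were higher. Mrc2 and Serpinb9 were also called with all samples under a minimum of 10 reads per sample, by voom and with the GC trend removed. Serpinb9 was called with scaling by total reads too, and Mrc2 without control replicate 3. The urokinase receptor partners called higher were 1 without control replicate 2, without any one metformin sample or without the filter on low values, the uptake receptors 1 without metformin replicate 1 or 2, and the other serpins 0 without metformin replicate 2 or 3 and 1 without metformin replicate 1 or with the replicate block.

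**Figure D4:**
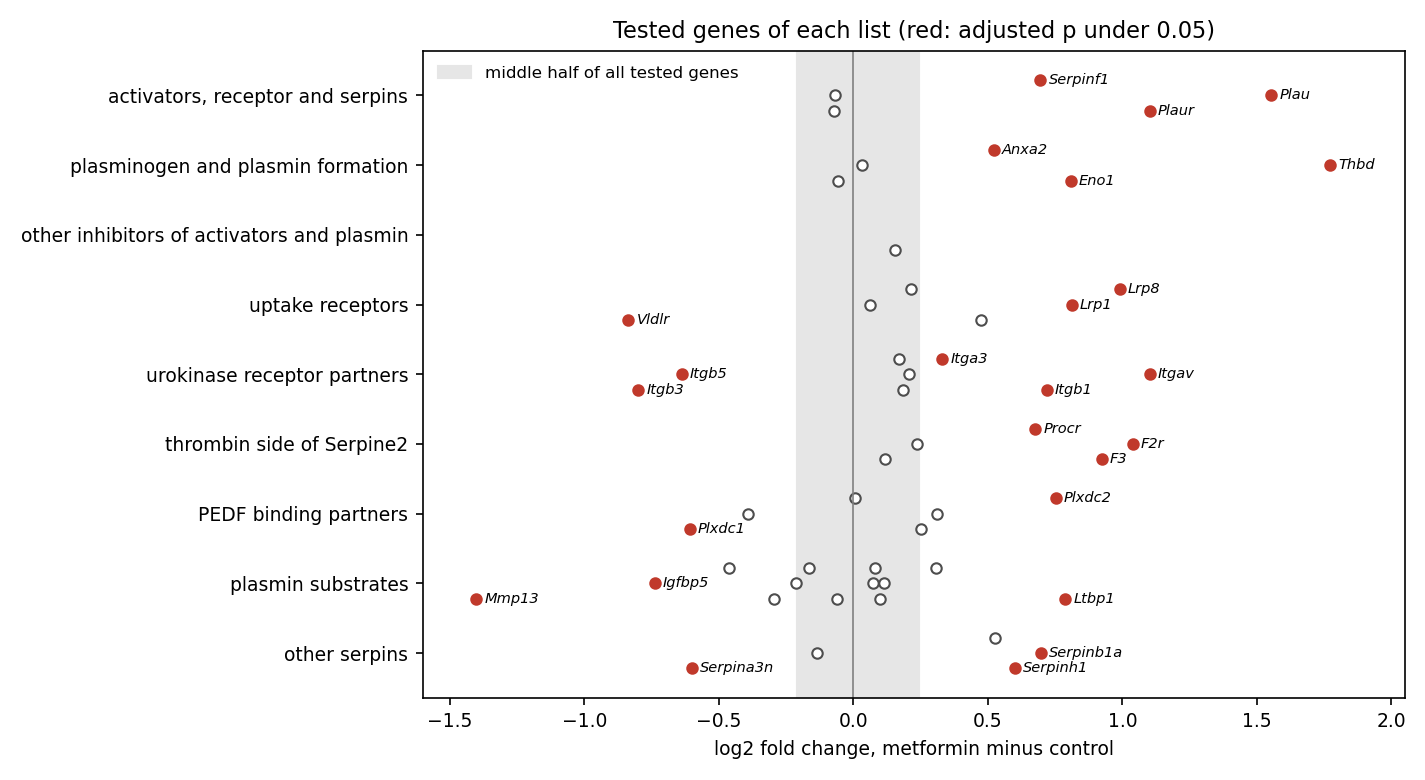
Log2 fold change (horizontal axis, metformin minus control) of every tested gene of the activators, receptor and serpins and of 8 related lists (vertical axis), red where the adjusted p was under 0.05. The shaded band runs from the lower to the upper quartile of all tested genes (-0.21 to 0.24), and the calls outside it include Plau at 1.55, Thbd at 1.77 and Mmp13 at -1.40.

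By the root mean square difference of centred log2(FPKM + 1) values over the 6 samples, the tested genes most like Plau were Ccne2 (0.061), Kif14 (0.069) and Rbl1 (0.073). Those most like Plaur were Smad6 (0.061), Tpm2 (0.063) and Tubb4b-ps1 (0.072). Those most like Serpinf1 were Ctnnbip1 (0.041), Grk6 (0.051) and Srsf2 (0.054). For Plat they were Micu2 (0.025), Arl8b (0.033) and Fstl1 (0.034), and for Serpine2 Slc38a2 (0.027), Rtl8b (0.028) and Gng5 (0.031).

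Markers of other cells were checked because bulk RNA cannot tell fewer cells of a type from less RNA per cell. The 6 endothelial markers summed to 0.439 to 0.726 FPKM in the controls and 0.723 to 1.10 with metformin, with Vwf the single one tested and not called (adjusted p = 0.171). Of 8 macrophage and osteoclast markers, 2 were lower, Ctsk (259 ± 14.8 and 155 ± 6.50 FPKM) and Cd68, which osteoblast-lineage cells can also express, whereas Itgam, Acp5 and Tyrobp had 0 reads in every sample, and the list summed to 245 to 273 against 150 to 163 FPKM. The 6 adipocyte markers summed to 7.78 to 12.2 and 8.65 to 9.68 FPKM with none called, the 6 chondrocyte markers to 29.9 to 43.6 and 29.0 to 31.0 FPKM with Col10a1 lower, and the 5 epithelial markers to at most 0.0813 FPKM. Of 10 tested osteoblast markers, Col1a1 and Col1a2 were higher and Ibsp, Spp1 and Dmp1 were lower, and the part of these changes in the values above was not tested.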

How the data were processed

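RNA sequencing of 3 control and 3 metformin-treated samples was analysed. The authors deposited 1 table without a named unit. The deposited values were taken as FPKM: multiplied by the gene length in the table, 100% of those above 0 gave whole reads (tolerance 0.01), and the library sizes behind them match scaling by the median of ratios. The authors tested with DESeq2. The submitters' processing notes name Bowtie 0.12.2 and the builds mm8 and mm9, whereas 53585 of 54532 genes have GENCODE M21 (GRCm38) coordinates, so the build of the alignment is uncertain. The counting tool is not given in the sources used here, nor is use of strand.

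Log2(FPKM + 1) values of the 12681 genes averaging 0.5 FPKM or more were fitted with limma-trend (limma 3.58.1, R 4.3.3). P-values were adjusted over all of them by the Benjamini-Hochberg method, and the threshold was 0.05. limma took the place of the study's count model, which was not run on the recovered reads. The fit was repeated with 0.1 as pseudocount, with libraries scaled to total reads, without the filter, with a minimum of 10 reads per sample, with the replicate number as a block, with voom on the recovered reads, with the GC trend removed (spline of 5 degrees of freedom per library, GC of the longest transcript), and without each sample in turn. Near-identical transcripts were sought with BLAST+ 2.17.0, and figures were drawn with matplotlib 3.10.9.

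The members and lists were chosen with earlier results of these data known. Named are the 5 genes, the called and best known genes of each list, and for each of the 5 the 3 most similar genes. Some genes of this system are not reported here and were left out of the lists.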

Additional observations from a re-analysis of the deposited data

How the results depend on the processing

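The calls of Plau, Plaur and Serpinf1 were kept in all 13 alternatives, and Plat and Serpine2 were called in none of them. Leaving out single samples put the log2 fold change of Plau between 1.38 and 1.68 (adjusted p 0.000175 to 0.00767), that of Plaur between 0.90 and 1.24 (0.00027 to 0.0362) and that of Serpinf1 between 0.62 and 0.80 (0.00294 to 0.0488). It ranged from -0.20 to 0.077 for Plat and from -0.23 to 0.12 for Serpine2, above 0 for both only without control replicate 1, and the cause was not tested. Over the same fits S100a10 ranged from -0.23 to 0.16 and Plgrkt from -0.030 to 0.093.

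Over all tested genes, 1670 were higher and 1177 lower. The replicate block gave 1161 and 698, and the members' calls were the same. Same-numbered samples did not deviate together (correlations -0.0533, 0.000265 and -0.0549, with 0 of 6 samples closest to their own number), so the numbers were not taken to pair the samples. With the GC correction 2426 were higher and 2030 lower. Leaving out one sample gave 938 to 2969 higher and 495 to 2590 lower, with the maxima without control replicate 1 and the minima without metformin replicate 1. With scaling by total reads, the median over tested genes of the shift in log2 fold change was -0.0246. For the list genes named, 351 of 403 alternative fits kept direction and side of the threshold, 36 lost a call, 14 gained one and 2 changed sign, none of a called gene. At these depths the rarest transcripts, such as Plg, could not be compared.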
